A study of Mus musculus with 2 samples.

Results

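The non-collagen matrix and tendon genes are 45 annotated mouse genes for proteoglycans, glycoproteins, elastic fibre and basement membrane proteins, matrix enzymes with their inhibitors, and tendon regulators. They were chosen by gene symbol, by a rule that uses no measured value, though with earlier results of these data known. The reads of every model of a gene were summed. The 45 genes were all detected in at least 1 library, as were 14704 of all 55536 annotated genes. Long-read RNA-seq, in which single molecules are read along their splice structure, was done on gastrocnemius, the large calf muscle, of 14-day-old male B6CASTF1/J mice, the first-generation hybrid of the C57BL/6J and CAST/EiJ strains. The 2 libraries, replicate 1 and replicate 2, form a single group with no treated or control counterpart, each made from 2 µg of RNA. The labels number them as separate biological replicates but give the same donor entry and the same identifiers for both. They name males in the plural without stating how many animals each library holds. Means and SD therefore cover only the spread between these libraries, which may be technical. The p-values set 1 library against 1 library and cover counting error only, and no test compares conditions.

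The extracellular matrix around muscle fibres and in tendon is built on collagen fibrils whose diameter and spacing are tuned by small leucine-rich proteoglycans. Matricellular proteins such as osteonectin and the thrombospondins bind these fibrils and cell surface receptors without forming fibres themselves, and each muscle fibre is wrapped in a basement membrane of laminin, nidogen and perlecan. Tendon, which carries the force of the gastrocnemius to bone, is marked by the transcription factor scleraxis and the membrane protein tenomodulin.

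Without spike-in RNAs, the depth was 1094607 reads for replicate 1 and 626289 for replicate 2, and 98.02% and 96.69% of these were on annotated genes. A level in counts per 1000000 reads (CPM) is a number of molecules read, not a density per base, and 3 reads, taken as the floor, stand for 2.74 and 4.79 CPM. The 5 muscle fibre markers (Acta1, Ckm, Myh4, Tnnc2 and Mylpf) summed to 207000 and 223300 CPM, which fits the tissue label. Relative to replicate 2, replicate 1 held fewer short and more long RNAs. The median log2 ratio of replicate 1 over replicate 2 was -0.65 for genes whose models averaged up to 1002 bases and 0.50 for those from 4851 bases upwards.

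The sequences at which molecules of some of the genes differed are shown first. They are from GENCODE M21 transcripts on mm10, written 5′ to 3′ on the RNA. At the start of exon 3 of Sparc (osteonectin, chr11:55407277-55407279, minus strand, coding) and of exon 5 of Thbs1 (thrombospondin 1, chr2:118114651-118114653, plus strand, coding), capitals mark 3 bases that some molecules kept and others lacked, between the last 24 bases of the exon before and the next 24 bases of the exon.
Sparc exon 3 start: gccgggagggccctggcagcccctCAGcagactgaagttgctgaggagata
Thbs1 exon 5 start: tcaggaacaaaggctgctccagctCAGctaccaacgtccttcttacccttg

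The fibronectin gene Fn1 and the tenascin C gene Tnc carry whole optional exons for fibronectin type III repeats, and the periostin gene Postn has short optional exons near its 3′ end. In each sequence the exon is in capitals between 12 bases of the neighbouring exons of the named transcript. The Fn1 exons are the extra domains EIIIB (exon 25 of 46 in the annotated transcript with the most exons, 273 bases, chr1:71613763-71614035, minus strand) and EIIIA (exon 33, 270 bases, chr1:71603660-71603929, minus strand). The Tnc exon is exon 15 of Tnc-203 (273 bases, chr4:63982651-63982923, minus strand), and the Postn exons are exon 17 (81 bases, chr3:54380412-54380492, plus strand) and exon 21 (84 bases, chr3:54385671-54385754, plus strand) of Postn-202.
Fn1 EIIIB: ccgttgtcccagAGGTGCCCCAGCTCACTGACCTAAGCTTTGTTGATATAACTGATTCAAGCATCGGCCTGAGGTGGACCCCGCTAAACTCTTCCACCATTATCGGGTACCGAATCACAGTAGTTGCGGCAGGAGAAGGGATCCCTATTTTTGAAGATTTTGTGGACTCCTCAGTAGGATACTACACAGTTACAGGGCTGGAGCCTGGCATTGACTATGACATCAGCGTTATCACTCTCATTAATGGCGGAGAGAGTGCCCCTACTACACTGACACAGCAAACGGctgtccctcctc
Fn1 EIIIA: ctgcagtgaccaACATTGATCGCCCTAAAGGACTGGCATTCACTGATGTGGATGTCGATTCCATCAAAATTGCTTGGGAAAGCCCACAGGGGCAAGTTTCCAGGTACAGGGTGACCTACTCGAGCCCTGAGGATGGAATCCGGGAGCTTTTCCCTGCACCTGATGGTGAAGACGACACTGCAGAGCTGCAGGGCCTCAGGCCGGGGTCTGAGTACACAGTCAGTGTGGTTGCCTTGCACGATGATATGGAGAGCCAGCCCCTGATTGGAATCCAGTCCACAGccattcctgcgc
Tnc exon 15: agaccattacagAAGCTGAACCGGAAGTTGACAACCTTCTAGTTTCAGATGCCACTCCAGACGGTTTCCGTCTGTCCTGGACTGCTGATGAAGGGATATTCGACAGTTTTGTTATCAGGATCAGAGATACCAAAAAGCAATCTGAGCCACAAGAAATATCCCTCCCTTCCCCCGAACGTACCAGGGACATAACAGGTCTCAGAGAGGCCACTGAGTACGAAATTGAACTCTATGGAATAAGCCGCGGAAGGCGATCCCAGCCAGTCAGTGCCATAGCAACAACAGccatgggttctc
Postn exon 17: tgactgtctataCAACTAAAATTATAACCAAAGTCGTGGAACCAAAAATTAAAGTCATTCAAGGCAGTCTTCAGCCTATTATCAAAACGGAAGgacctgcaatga
Postn exon 21: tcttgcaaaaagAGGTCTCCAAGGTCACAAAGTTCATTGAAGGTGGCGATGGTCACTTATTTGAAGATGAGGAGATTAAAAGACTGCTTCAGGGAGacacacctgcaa

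The 45 genes together took 4122 reads in replicate 1 and 1442 in replicate 2. This was 0.377% of replicate 1 (exact 95% binomial interval 0.365% to 0.388%) and 0.2302% of replicate 2 (0.219% to 0.242%), intervals that cover counting error only. Their summed level was 3766 and 2302 CPM, or 3034 ± 1035 CPM (SD, n = 2). Sparc alone gave 31.8% of these reads in replicate 1 and 33.2% in replicate 2, 31 genes averaged at least 20 CPM, and 6 averaged below 10 CPM. In RNA from whole muscle, fewer cells of a type and less RNA per cell cannot be told apart.

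Between the libraries, 11 of the 41 members with at least 10 reads were higher in replicate 1 and 0 were lower, while 6.89% of all 7955 genes tested were higher and 6.56% lower (two-sided Fisher's exact test on the reads inside and outside the gene, Benjamini-Hochberg adjusted p under 0.05 over all genes). At an unadjusted p under 0.05 the count was 17 of 41. The log2 ratio was above 0 in 37 of the 41, against 62.7% of all genes, with a median of 0.70 in the members and 0.24 over all genes. When the expected ratio was set to the median of genes of similar length, 9 of the 41 were called higher, against 2.31% of all genes, and the median of the members was 0.35. The 11 genes were Sparc, Dcn, Fmod, Bgn, Kera, Angptl7, Thbs4, Cilp2, Comp, Tnmd and Lamb2.

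**Figure D1:**
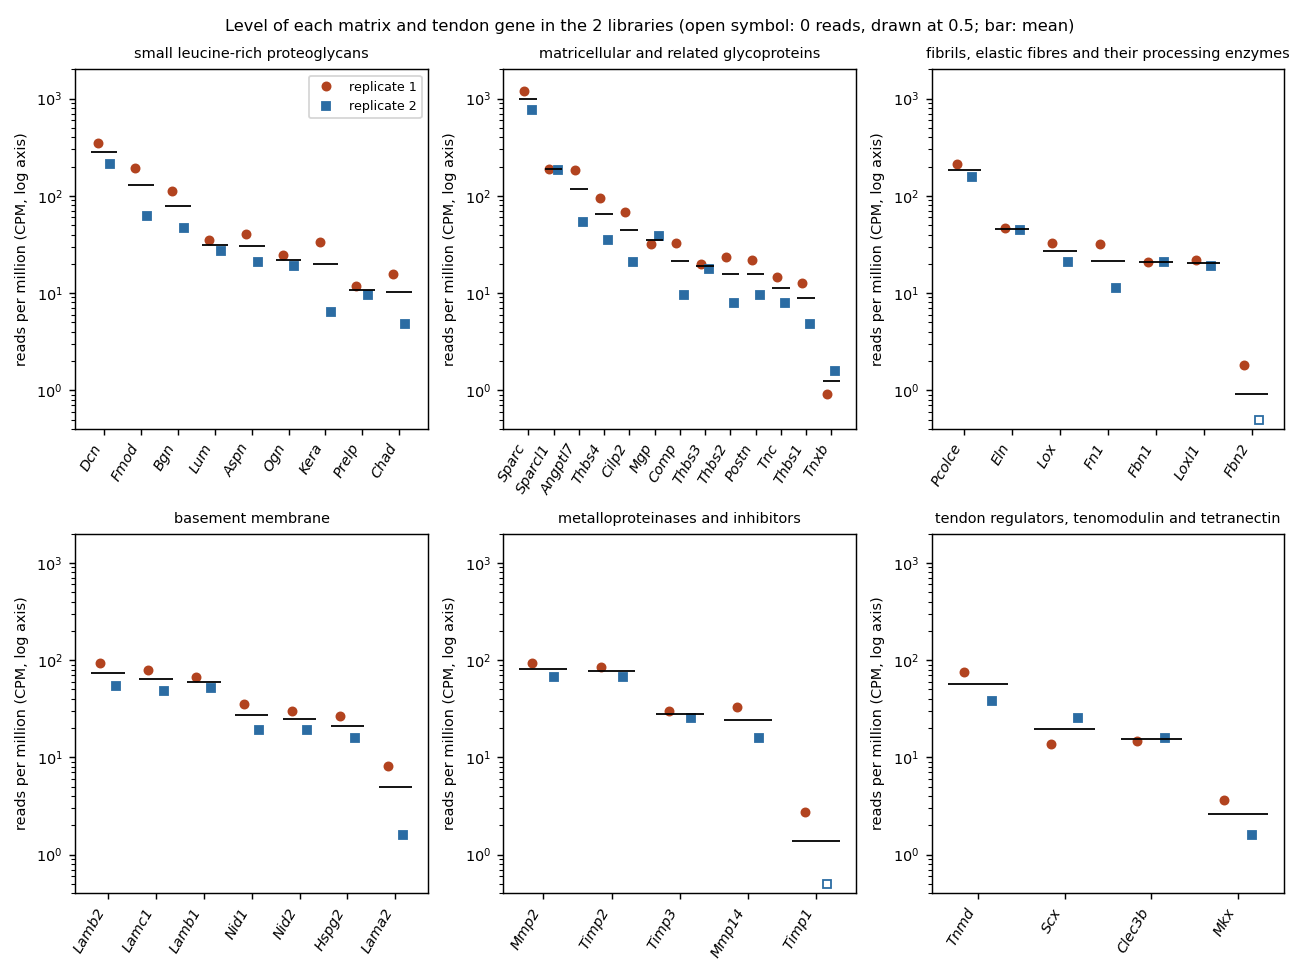
Level of each of the 45 genes in CPM on a log axis, by library (circles, replicate 1; squares, replicate 2; black bar, mean of the libraries), in 6 groups by role. Sparc stands highest at 1196 and 765 CPM, and Fbn2 and Timp1 have no read in replicate 2.

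The small leucine-rich proteoglycans summed to 817 CPM in replicate 1 and 407 CPM in replicate 2. Of the 9, 4 were higher in replicate 1, against 6.89% of all genes tested. The median log2 ratio of the 9 was 0.92, and 0.59 after the adjustment for length. Decorin (Dcn), which binds collagen fibrils and limits their lateral growth, was the most abundant at 349.9 and 211 CPM (log2 ratio 0.73, counting SE 0.15, Fisher's exact test adjusted p = 5.2e-06). Fibromodulin (Fmod), a tendon-rich member that assists fibril assembly and crosslinking, had 195 and 62.3 CPM (log2 ratio 1.63, SE 0.25, adjusted p = 1.1e-11). Biglycan (Bgn), the closest relative of decorin, had 111.5 and 46.3 CPM (log2 ratio 1.25, adjusted p = 1.2e-04). Keratocan (Kera), best known from the cornea, had 33.8 and 6.39 CPM, or 37 reads and 4 (log2 ratio 2.25, SE 0.72, adjusted p = 0.0033).

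The other 5 proteoglycans were not called. Lumican (Lum), a regulator of fibril spacing, had 34.7 and 27.1 CPM, and asporin (Aspn), which binds collagen and calcium, had 40.2 and 20.8 CPM. Osteoglycin (Ogn) had 24.7 and 19.2 CPM, chondroadherin (Chad), a cell-binding protein of cartilage and tendon, 15.5 and 4.79 CPM, and Prelp, which anchors basement membrane to connective tissue, 11.9 and 9.58 CPM. Chad thus rested on 17 reads and 3. Several of the genes are neighbours on a chromosome. Within 134.1 kb of chromosome 10, Dcn averaged 280.3 CPM, Lum 30.9 CPM and Kera 20.1 CPM, so that Dcn stood above both in each library, and within 138.0 kb of chromosome 1, Fmod averaged 128 CPM and Prelp 10.7 CPM. Aspn and Ogn, within 80.1 kb of chromosome 13, averaged 30.5 and 21.9 CPM, and their libraries overlap.

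Among matricellular and related glycoproteins, which summed to 1888 and 1158 CPM, 5 of the 12 tested were higher in replicate 1. Of all genes tested, 6.89% were. The median log2 ratio of the 12 was 1.18, and 0.72 after the adjustment for length. Sparc, a collagen-binding calcium-dependent glycoprotein of growing and remodelling tissue, had 1309 and 479 reads, or 1196 and 765 CPM (log2 ratio 0.64, SE 0.077, adjusted p = 4.4e-16). Its lower library lay above the higher library of each other member. Its relative Sparcl1, known as hevin, had 188 and 185 CPM (log2 ratio 0.02), the smallest difference among the 6 members averaging at least 100 CPM. Angptl7, a secreted angiopoietin-like protein, had 183 and 54.3 CPM (log2 ratio 1.73, SE 0.27, adjusted p = 5.9e-12). Cilp2, a cartilage intermediate layer protein, had 68.5 and 20.8 CPM (log2 ratio 1.68, adjusted p = 2.0e-04). Matrix Gla protein (Mgp), an inhibitor of calcification, had 31.97 and 38.3 CPM and was not called.

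The thrombospondins are multimeric calcium-binding glycoproteins, and Thbs4 and Comp (thrombospondin 5) are pentameric members enriched in tendon. Thbs4 led the family with 94.1 and 35.1 CPM (log2 ratio 1.40, SE 0.34, adjusted p = 1.2e-04). Comp had 32.9 and 9.58 CPM (log2 ratio 1.68, adjusted p = 0.0198), with the call lost after length adjustment (adjusted p = 0.17) and with TMM library sizes (adjusted p = 0.065). Thbs2 and Thbs1, the trimeric members, had 23.7 and 7.98 CPM and 12.8 and 4.79 CPM, and Thbs3 had 20.1 and 17.6 CPM. None of these 3 was called. Periostin (Postn), a collagen-binding protein, had 21.9 and 9.58 CPM, and tenascin C (Tnc), a hexameric glycoprotein of tendon and the muscle-tendon junction, 14.6 and 7.98 CPM. Tenascin X (Tnxb) had 1 read in each library.

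Fibril and elastic fibre genes and their enzymes summed to 366 and 271 CPM, with none of the 6 tested called. Pcolce, which speeds removal of the carboxy-terminal propeptide from procollagens, had 210.1 and 155 CPM (adjusted p = 0.074). Elastin (Eln) had 46.6 and 44.7 CPM, and fibrillin 1 (Fbn1), which forms the microfibrils on which elastin is laid down, 21.01 and 20.8 CPM. These 2 elastic fibre genes differed by little between the libraries when all reads were counted. Reads without an intron made up 14 of 51 and 11 of 28 for Eln, and 6 of 23 and 8 of 13 for Fbn1. On complete models, defined below, Eln had 26 reads in replicate 1 and 8 in replicate 2, and Fbn1 3 and 1. Fibronectin (Fn1), which cells assemble into fibrils ahead of collagen, had 31.97 and 11.2 CPM (log2 ratio 1.44, SE 0.58, adjusted p = 0.064). Lysyl oxidase (Lox), which crosslinks collagen and elastin, had 32.9 and 20.8 CPM, and Loxl1, a relative used in elastic fibres, 21.9 and 19.2 CPM. Fibrillin 2 (Fbn2), the form typical of embryonic tissue, had 2 reads in replicate 1 and 0 in replicate 2.

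Basement membrane genes summed to 341 and 209 CPM, and the log2 ratio was above 0 in all 7 with a median of 0.70. Over all genes tested, 62.7% had a ratio above 0. After the adjustment for length the median of the 7 genes was 0.19. The laminin chain genes Lamb2, Lamc1 and Lamb1 were the most abundant. Lamb2, the beta chain concentrated at neuromuscular synapses, had 94.1 and 54.3 CPM (log2 ratio 0.78, SE 0.28, adjusted p = 0.037), a call that length adjustment (adjusted p = 0.79), TMM library sizes (adjusted p = 0.1993), thinning of replicate 1 (adjusted p = 0.12) and counting complete (adjusted p = 0.42) or annotated (adjusted p = 0.94) models alone each removed. Lamc1, the gamma chain common to most laminins, had 78.6 and 47.9 CPM, and Lamb1 67.6 and 51.1 CPM. Lama2, the alpha chain of muscle laminin, had 9 reads and 1. Nidogens, which link laminin to collagen IV, stood at 35.6 and 19.2 CPM for Nid1 and 30.1 and 19.2 CPM for Nid2. Perlecan (Hspg2), a large heparan sulfate proteoglycan, had 26.5 and 15.97 CPM. The transcripts of these 7 genes are long, and 12 of the 41 tested members fell in the top length decile of all genes, where the median log2 ratio was 0.78 for members and 0.50 for all genes.

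Among proteases and inhibitors none of the 4 tested was called. Mmp2, a gelatinase, had 94.1 and 67.1 CPM, and Mmp14, the membrane protease that activates it, 32.9 and 15.97 CPM. The metalloproteinase inhibitor Timp2, which takes part in that activation, had 85.9 and 67.1 CPM, Timp3, which stays bound to the matrix, 30.1 and 25.5 CPM, and Timp1 had 3 reads and 0.

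Of the tendon regulators and related genes, Tnmd was higher in replicate 1, and Scx, which had the lower level there, did not pass the test. Tenomodulin (Tnmd) had 75.8 and 38.3 CPM (log2 ratio 0.96, SE 0.33, adjusted p = 0.023), a call lost with TMM library sizes (adjusted p = 0.12) and with annotated models alone (adjusted p = 0.054). Scleraxis (Scx) had 13.7 and 25.6 CPM, or 15 reads and 16 (log2 ratio -0.8957, SE 0.51, adjusted p = 0.31). Mohawk (Mkx), a homeobox factor of tendon, had 4 reads and 1. Tetranectin (Clec3b), a plasminogen-binding protein made by fibroblasts, had 14.6 and 15.97 CPM.

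**Figure D2:**
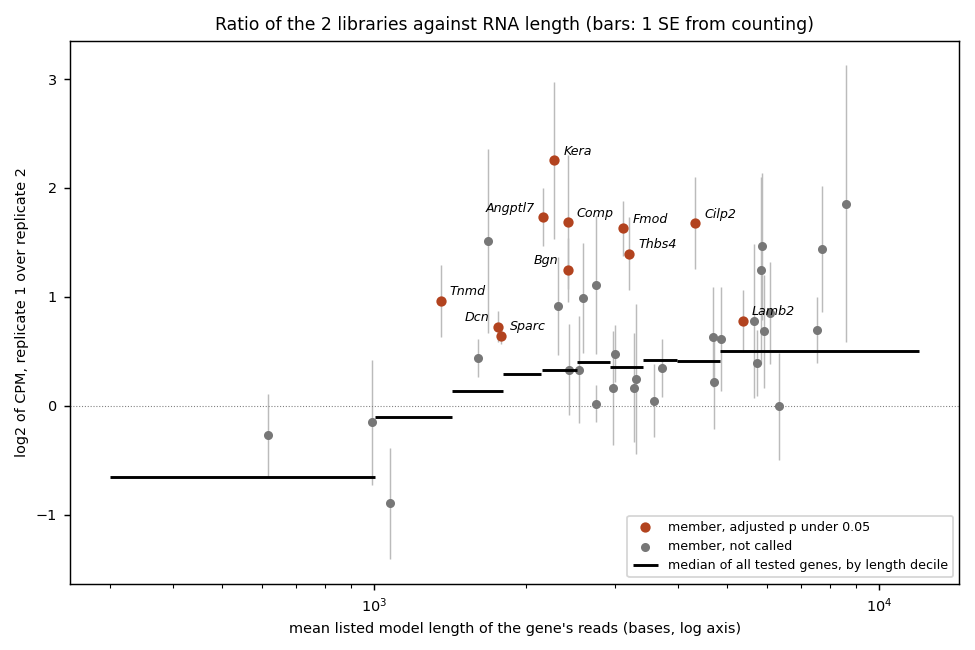
Log2 ratio of CPM, replicate 1 over replicate 2, of the 41 members tested against the mean listed length of their models in bases on a log axis (red, adjusted p under 0.05; grey, not called; thin lines, 1 SE from counting; black lines, median of all tested genes in each length decile, clipped at the plot's edges). The red points lie above the black lines, and the all-gene median runs between -0.65 in the shortest decile and 0.50 in the longest.

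Related genes outside the set mostly had ratios above 0 as well, 15 of 18 collagens and 41 of 46 other matrix genes tested, against 62.7% of all genes tested. The collagens summed to 8896 and 3914 CPM, with 8 higher in replicate 1 and 1 lower (Col4a2) and a median log2 ratio of 1.04. After the adjustment for length 5 were higher and 1 lower, with a median of 0.53. Of 67 other matrix genes, 61 were detected, 46 were tested, 9 were higher and 0 lower, with a median of 0.57. After the adjustment for length 2 were higher and 0 lower, with a median of 0.23. Of all genes tested, 6.89% were higher in replicate 1, and 2.31% after that adjustment. The most abundant of the other matrix genes were Igfbp7, Serpinh1 (the collagen chaperone) and Ltbp4. They stood at 328 and 279 CPM, 317 and 269.8 CPM, and 181 and 112 CPM. Before the adjustment for length, Ltbp4 was called (Fisher's exact test, adjusted p = 0.0057), and Igfbp7 and Serpinh1 were not.

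Markers of other cells were read beside these values. The 5 tenocyte markers, each itself a member, summed to 382 and 163 CPM. Fmod alone gave 195 and 62.3 CPM of that sum. Of the 4 tested, 3 had a log2 ratio above 0, and Scx, at 13.7 and 25.6 CPM, was below 0. Fibroblast markers summed to 796 and 553 CPM, endothelial markers to 269.5 and 149 CPM, and pericyte and smooth muscle markers to 469.6 and 351 CPM, and 1 gene of each of these lists was called higher in replicate 1 (Gsn, Cldn5 and Acta2). Gsn alone gave 704.4 and 485.4 CPM of the fibroblast sum, while Dpt, Clec3b and Ly6a had log2 ratios of -0.25, -0.15 and 0.01. After the adjustment for length 0 of 7 fibroblast, 1 of 4 endothelial and 0 of 4 pericyte and smooth muscle markers were called. Schwann and perineurium markers ran the other way, at 247 and 441 CPM, with 2 of the 2 tested lower in replicate 1. Of 8 cartilage and bone markers, Col2a1 had 26 reads and 2, Bglap 0 and 1, and the other 6 were at 0. Col2a1, the 1 tested, was called higher in replicate 1 (log2 ratio 2.6, Fisher's exact test adjusted p = 0.0072). It was not called after the adjustment for length. Of 3 skin markers, Krt10 alone was detected, with 7 reads and 6. The part of these cell types in the ratios of the members was not tested.

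The deposited models class each read by how its splice structure meets the annotation. Complete models have introns that match an annotated transcript or join known or new splice sites. They were distinguished from partial ones (part of an annotated transcript) and from a class named genomic (other reads that overlap a gene). Reads without an intron occur in both of these classes, as in partial models of Hspg2 (12 and 8 reads) and genomic models of Nid1 (9 and 4). Among member reads, 71.1% in replicate 1 and 67.4% in replicate 2 were on annotated models, 18.8% and 19.6% on partial models, and 6.77% and 10.06% on genomic ones. Over all genes these shares were 71.8% and 71.7%, 10.2% and 11.6%, and 2.34% and 4.69%. New combinations of known sites held 1.43% and 1.32%, and new splice sites 1.94% and 1.66%, of member reads. Over all genes these 2 classes held 3.86% and 4.07%, and 11.8% and 7.95%.

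Long genes were read incompletely. Complete models held 77.8% of reads in the 15 members whose longest coding transcript is under 2500 bases, 74.4% in the 17 between 2500 and 5000 bases, and 45.6% in the 13 from 5000 bases. The first share counts 251 and 144 Sparc reads on short annotated models, described below, that may be molecules read in part. Over genes with at least 10 reads, the median share was 89.6%, 75.1% and 45.3%. Dcn reached 97.3% and Scx 100%. Fn1 had 30.95%, Lama2 30%, Fbn1 11.1% and Hspg2 10.3%. The short Ogn, at 41.0%, and Eln, at 43.0%, stood below genes of similar length. In both long fibrillin 1 and perlecan, splice forms could not be read from whole molecules at this depth, with 4 complete reads each.

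**Figure D3:**
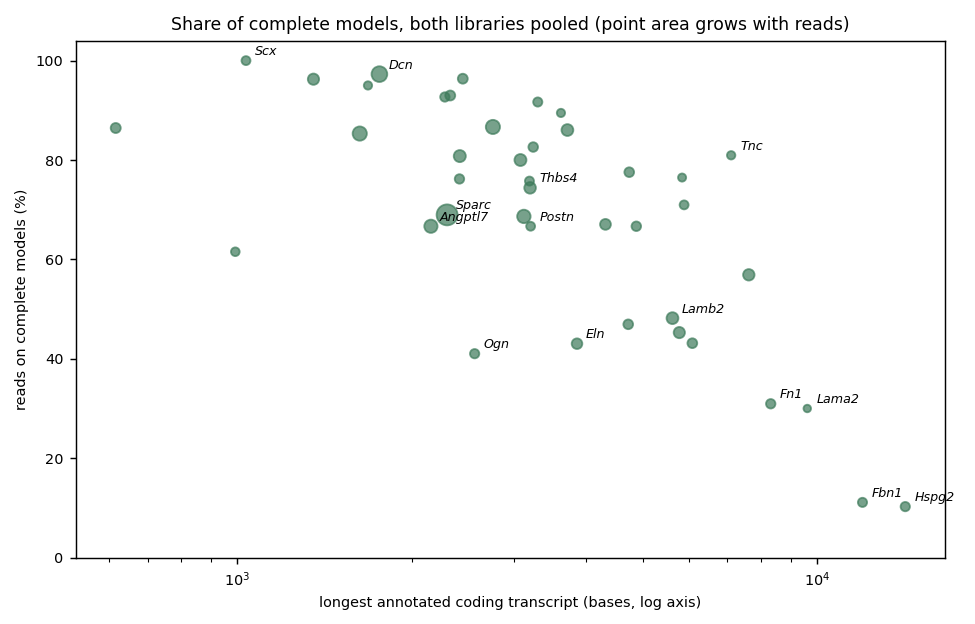
Share of reads on complete models in percent, both libraries pooled, against the longest annotated coding transcript in bases on a log axis, for members with at least 10 reads (larger points, more reads). Short genes such as Scx (100%) and Dcn (97.3%) stand at the top, and Fbn1 (11.1%) and Hspg2 (10.3%) at the lower right.

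The share of complete models could be compared between the libraries in 16 members, and 1 differed, against 9.9% of 2767 genes with a higher and 0.361% with a lower share in replicate 1 (two-sided Fisher's exact test, adjusted p under 0.05). At an unadjusted p under 0.05 there were 2. The 1 gene was Angptl7, with 145 of 200 reads (72.5%) on complete models in replicate 1 and 11 of 34 (32.4%) in replicate 2 (Fisher's exact test, adjusted p = 3.3e-04). Its unspliced reads numbered 54 and 23, all listed as a single base at the annotated 3′ end, so the listed length does not describe them. With complete models alone the log2 ratio of Angptl7 was 2.86, above the 1.73 from all reads. The gene lies on chromosome 4 on the opposite strand within Mtor, which had 20 reads and 3. Sparc had 107 and 74 unspliced reads, all but 1 of them listed in the same way.

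Where whole molecules could be compared, members were mostly made as a single annotated form. In the 31 members with at least 20 complete reads the leading model was annotated every time, with a median share of 95.7%, and it held under 90% in 6, namely Sparc, Eln, Postn, Lamb2, Lamb1 and Mmp2. Dcn used an alternative first exon in a small, steady share. Dcn-202, whose first exon starts 2758 bases downstream of that of Dcn-201 and has the same length of 181 bases, held 23 of 373 complete reads (6.17%) and 8 of 128 (6.25%), and Dcn-201 held 344 and 119. The leading annotated Lamb1 model held 30 and 12 reads and the next 2 and 2. That of Mmp2 held 73 and 29 reads, and an unannotated 14-exon model with an intron inside the last exon 4 and 4. That of Lamb2 held 27 and 13 reads, and an unannotated model that ends exon 1 earlier by 5 bases held 9 and 0. That donor was used in 12 of 43 and 1 of 15 reads (two-sided Fisher's exact test, adjusted p = 0.43 over 7 splice site choices).

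Sparc was the 1 of 8 members whose model shares differed between the libraries, against 2.94% of 2108 genes tested (chi-square test of reads per model, adjusted p = 5.2e-04). The full-length Sparc-201 held 538 of 911 complete reads (59.1%) in replicate 1 and 142 of 322 (44.1%) in replicate 2. The 5-exon Sparc-205 held 216 (23.7%) and 126 (39.1%). With the 4-exon Sparc-203, these short models reached 27.6% and 44.7%. Both short models are typed in the annotation as retained intron, whereas Sparc-201 is typed as protein coding. Their chains of introns also lie inside Sparc-201, and the files give no read ends, so they cannot be told apart from Sparc-201 molecules read in part.

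**Figure D4:**
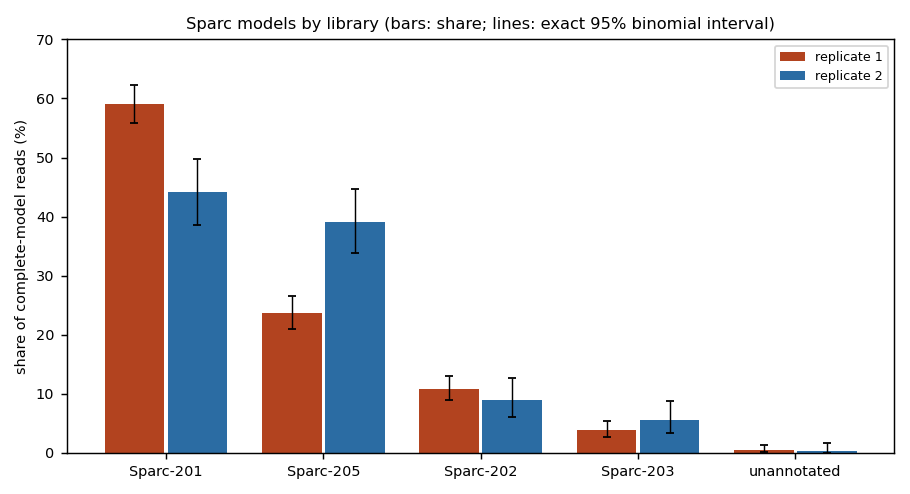
Share of complete-model reads of Sparc held by its 5 leading models, in percent (red, replicate 1; blue, replicate 2; lines, exact 95% binomial interval). Sparc-201 holds 59.1% in replicate 1 and 44.1% in replicate 2, and Sparc-205 holds 23.7% in replicate 1 and 39.1% in replicate 2.

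Sparc molecules also differed by the 3 capital bases at the start of exon 3 shown above, which keep the reading frame. The shorter form, that of Sparc-202, was read in 103 of 658 molecules in replicate 1 (15.7%, exact 95% interval 12.96% to 18.7%) and in 32 of 180 in replicate 2 (17.8%, 12.5% to 24.2%), a mean of 16.7% ± 1.502 (SD, n = 2). The test found no difference between the libraries (Fisher's exact test, adjusted p = 0.58). The optional CAG is followed by a second cag, so both forms of the exon begin with the same letters. The analogous choice in Thbs1, where the shorter exon is not annotated, was read in 6 of 11 molecules in replicate 1 and 0 of 2 in replicate 2. Of the 7 splice site choices with at least 5 reads on the less used site, none differed between the libraries at an adjusted p under 0.05. Reads were not assigned to the parental alleles of the hybrid, so use of a site by allele was not analysed here.

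Each extra domain was in a minority of the fibronectin molecules read. EIIIB was present in 6 of 21 molecules that span it in replicate 1 and 1 of 5 in replicate 2, or 26.9% of 26 in all (exact 95% interval 11.6% to 47.8%). EIIIA was present in 7 of 24 and 2 of 6, or 30% of 30 (14.7% to 49.4%). Of 26 molecules that span both exons, 12 had neither, 7 had EIIIA alone, 6 had EIIIB alone and 1 had both. As background, plasma fibronectin from liver lacks both domains, whereas cellular fibronectin carries them in variable proportions. Complete models alone gave 4 of 13 for EIIIB and 6 of 13 for EIIIA.

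In tenascin C, the leading model was unannotated and held 13 of 17 complete reads (9 of 12 in replicate 1 and 4 of 5 in replicate 2). It skips 6 repeat exons of 273 bases each. Of these, exon 15 of Tnc-203 was the most used, in 3 of 14 and 1 of 5 molecules, 2 others were in 1 molecule each and 3 in none of 19. The short form was thus the common one in both libraries. Periostin varied at its 3′ end, and its leading model, Postn-202, held 9 of 15 and 3 of 5 complete reads. Exon 17 was present in 16 of 22 and 4 of 5 molecules, exon 20 in 21 of 22 and 6 of 6, and exon 21 in 13 of 22 and 6 of 6. The interval for exon 21 in replicate 2 reaches down to 54.1%, below the 59.1% of replicate 1.

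**Figure D5:**
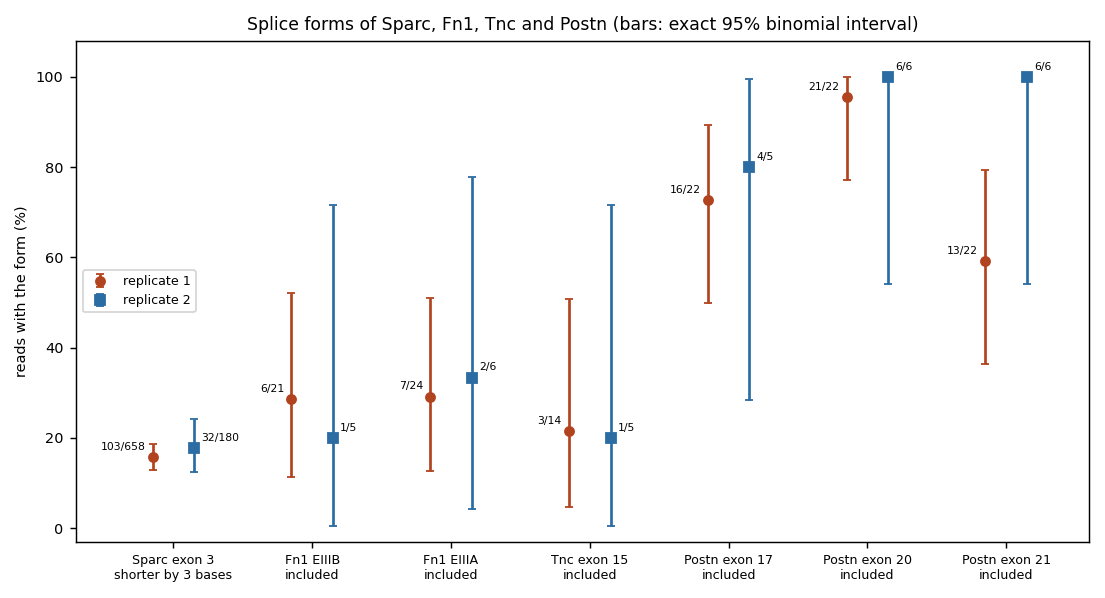
Percent of molecules with the named splice form in Sparc, Fn1, Tnc and Postn, by library (circles, replicate 1; squares, replicate 2; lines, exact 95% binomial interval; reads with the form over reads that span it beside each point). The Sparc choice, at 15.7% and 17.8%, has the narrowest intervals of the forms plotted.

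Elsewhere exons were near constant. Of 347 internal exons in 31 members with at least 20 complete reads spanning them, 13 had an inclusion between 5% and 95%, and these lay in Eln (12) and Postn (1). In Eln, whose many small exons encode alternating crosslinking and hydrophobic stretches, skipping rested on 2 to 5 molecules of replicate 1 per exon in complete and partial models, and 0 molecules of replicate 2 skipped any of them. Unannotated Eln models of 1 read each in replicate 1 held 18 to 30 exons, against 37 in Eln-201. A single molecule can thus account for skips at several neighbouring exons, and the 12 exons are not 12 separate observations. Eln-201 nevertheless held 18 of 26 and 7 of 8 complete reads.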

How the data were processed

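Long-read RNA-seq of mouse gastrocnemius was deposited as 1 table of whole read counts per transcript model and 1 model annotation for each library. Per the notes deposited with the tables, the authors counted reads from an alignment on mm10 with GENCODE M21. The attribute names are those of TALON. Neither aligner nor versions are named in those notes. Per the file headers, each deposited model has an exon number, a length and a class.

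ERCC spike-in contigs were set aside. Counts were summed over all models per annotated gene, and CPM are counts per 1000000 remaining reads. Fisher's exact test was applied to genes with at least 10 reads over both libraries, with Benjamini-Hochberg adjustment over all of them, and log2 ratios used a pseudocount of 0.5 reads. edgeR's quasi-likelihood test was not run, since there is a single group. edgeR 4.0.16 in R 4.3.3 gave the TMM library sizes used in an alternative, and scipy 1.17.1, pandas 2.3.3, numpy 2.4.6 and matplotlib 3.10.9 under Python 3.11.15 did the rest. Model shares were tested by the chi-square test, or for 2 models Fisher's exact test, where each library had 20 complete-model reads (models under 5 reads pooled). The length-adjusted alternative compared each gene, by an exact binomial test, with the median ratio of its length decile. The gene test, its length-adjusted form and the model-share test were run on simulated counts whose random spread was counting error only. The complete-share, splice site and exon inclusion tests were not simulated. Exon inclusion counts reads spanning both neighbours of an exon.

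Members and lists were chosen with earlier results of these data known. The listed symbols Ctgf and Cyr61 are Ccn2 and Ccn1 in the annotation and were matched through RefSeq synonyms. The splice site choices, the complete-share test, the pairing of Fn1 domains and the grouping by role were added after values were seen. Every member was accounted for, with values by library for those averaging 20 CPM and for tendon genes. Reads carry no molecular identifiers, so intervals cover counting error only. Where another gene overlaps a member on the same strand (Timp2, Pcolce, Lama2, Lamc1, Hspg2 and Mkx) that gene had 0 reads. Genes on the opposite strand had 176 and 232 reads over Nid2 (Rtraf), 45 and 18 over Scx (Bop1) and 28 and 16 over Thbs3 (Mtx1), and how the counting used strand is not stated, so these members' counts are uncertain.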

Additional observations from a re-analysis of the deposited data

Results flagged for a closer look

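Antisense models were outside the comparisons, and over Sparc they exceeded the floor of 3 reads in both libraries, with 11 reads in replicate 1 and 4 in replicate 2. Of these, 7 and 2 were spliced, and all of the spliced ones had introns equal to those of Sparc itself, read on the other strand. Over all 45 genes there were 19 antisense reads in replicate 1 and 19 in replicate 2, in 12 genes, and 33 genes had none.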

How the results depend on the processing

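No paired analysis was possible because the libraries form a single group. The summed level of the members lay between 2302 and 3766 CPM when each library was left out. Over all genes, 1070 differed between the libraries (548 higher and 522 lower in replicate 1), against 568 with the length-adjusted ratio (182 and 386) and 929 with TMM sizes (266 and 663), which shifted the median log2 ratio of all genes by -0.18. With TMM sizes 8 members were higher and 33 of 41 had a ratio above 0, and with length adjustment 30 of 41. Genes with differing model shares fell from 62 to 15 when models were joined by their chain of introns, and the cause was not tested. Sparc remained the 1 member called. Exons with varying inclusion numbered 13, against 2 to 12 when a library was left out, since fewer exons then had 20 reads. Of the 11 called members, 8 stayed called under all 7 alternatives. Of 77 values, 68 kept their call, 9 lost it (Lamb2, Tnmd and Comp) and 0 changed sign. Replicate 2 has fewer reads, which limits values of genes under 5 CPM and all exon shares outside Sparc.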

Other observations

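Podocan (Podn), a small leucine-rich proteoglycan of the list of other matrix genes, had 36 reads in replicate 1 and 0 in replicate 2 (Fisher's exact test, adjusted p = 4.1e-06), so that it stood at 32.9 CPM in replicate 1 and under the floor of 4.79 CPM in replicate 2. It was chosen after its values were seen. The large proteoglycans Vcan and Acan and the proteases Mmp3 and Mmp13 had no read in either library. Transforming growth factor genes of that list were led by Tgfb3, at 53.9 and 22.3 CPM (adjusted p = 0.020 by Fisher's exact test), with Tgfb1 at 10.05 and 6.39 CPM and Tgfb2 at 10.05 and 9.58 CPM.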
